A study of Mus musculus with 6 samples.

Results

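The CCR4-NOT complex and the pseudogene Gm6158 were examined in RNA sequencing data of the prefrontal cortex. The set holds 10 genes of the 18160 rows in the table: Gm6158, which was chosen because it differed between the genotypes in these same samples, and 9 CCR4-NOT subunits (Cnot1, Cnot2, Cnot3, Cnot4, Cnot6, Cnot6l, Cnot7, Cnot8 and Cnot10), which were chosen by name after that result was known. Both genotypes compared were on the C57BL/6J strain at postnatal day 56, with 3 samples heterozygous for a Cyfip2 mutation and 3 wild-type (WT) samples. The labels do not describe the mutant allele beyond that, and nothing in them ties a sample to its own animal, so the p-values may reflect technical spread alone. Values are the authors' normalized counts, which are read estimates per gene put on a common scale between samples.

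CCR4-NOT is the main cytoplasmic deadenylase of eukaryotic cells. It shortens the poly(A) tail of mRNAs, which lowers their translation and opens them to decapping and decay. Its scaffold CNOT1 holds a module of CNOT2 and CNOT3, a module of CNOT10 and CNOT11, the adaptor CNOT9 and a pair of nucleases, one from the CNOT7 and CNOT8 paralogues and one from the CNOT6 and CNOT6L paralogues. MicroRNA-loaded Argonaute with TNRC6 proteins, and sequence-specific RNA-binding proteins such as the ZFP36 family, bring the complex to their target mRNAs. A processed pseudogene is a copy of a spliced mRNA that was inserted elsewhere in the genome.

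As annotated, Gm6158 (ENSMUSG00000090381) is such a copy of the end of the Cnot1 coding sequence. It lies on the plus strand at chr14:24069734-24070637 (GRCm38, GENCODE M21), between the genes Kcnma1, at a distance of 55.2 kb to the left, and Dlg5, at 63.3 kb to the right, and the predicted gene Gm31392 overlaps it on the other strand. Its single transcript of 904 bases aligned without a gap to bases 6512 to 7415 of the principal Cnot1 transcript, which has 8364 bases. The match ran over 6 exon junctions, from exon 43 to exon 49. The annotated transcript ended at the last base of the Cnot1 stop codon. Whether the likeness to Cnot1 goes on past the annotated ends was not examined, since no genomic sequence was at hand. The aligned sequences were identical at 901 of 904 bases, or 99.7%. The 3 substitutions, written with the Cnot1 base first and counted from 1 at the 5′ end of Gm6158, were A1C, C400T and C484G, and each fell on the third position of a Cnot1 codon. Within the aligned bases, the sequence of a read tells Cnot1 from Gm6158 only if the read covers a substitution. The windows around the inner pair are shown for this reason. No source used here states how reads that cover no substitution were divided between these genes. Capitals mark the base that differs, and sequences are 5′ to 3′ on the transcript strand.
Cnot1 around C400T, chr8:95723422-95723462, minus strand: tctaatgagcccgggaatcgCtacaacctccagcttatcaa
Gm6158 around C400T, chr14:24070113-24070153, plus strand: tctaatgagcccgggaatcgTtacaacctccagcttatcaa
Cnot1 around C484G, chr8:95723338-95723378, minus strand: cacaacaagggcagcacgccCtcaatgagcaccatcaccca
Gm6158 around C484G, chr14:24070197-24070237, plus strand: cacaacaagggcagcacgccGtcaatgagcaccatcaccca
Of the 874 stretches of 31 bases in Gm6158, 811 were also found in Cnot1 transcripts and 63 (7.21%) were not. Those 811 were 4.65% of the stretches of the same length in Cnot1.

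Gm6158 was listed above 0 in the heterozygous samples and at 0 in WT samples. Its normalized count was 30.2, 26.6 and 26.2 in heterozygous samples 1, 2 and 3, against 0 in each of the 3 WT samples. The genotypes did not overlap. These values chose the gene and are given as a description, with no test and no fold change. Of the 15151 genes with a mean normalized count of at least 10, which were tested, 0.0132% had an adjusted p under 0.05 in this contrast (limma-trend). Gm6158 entered that set with a mean of 13.8 over the 6 samples through the heterozygous samples alone.

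An exact 0 in this table does not show that a transcript was absent. Rps12, a ribosomal protein gene that every cell uses, was listed at 0, 105 and 0 in heterozygous samples 1, 2 and 3, and at 92.4, 0 and 0 in WT samples 1, 2 and 3. Rps12 shared 29.8% of its stretches of 31 bases with other genes, against 92.8% for Gm6158. Whether the zeros of these genes are of the same kind was not tested. The zeros of Rps12 did not follow the genotype. Those of Gm6158 did, which only repeats the values that chose it. In all, 11 genes were at 0 in all 3 WT samples and above 0 in all 3 heterozygous samples, and Gm6158 was the highest of them. The next was the predicted gene Gm28539, with 4.97, 4.20 and 5.73 in heterozygous samples 1, 2 and 3. Gm26965, Hoxd4, Gm12328 and Rad51b followed, with heterozygous means of 2.21 to 3.19. The opposite pattern was found in 18 genes. Among the highest of these were Gm44503, at 7.76, 3.17 and 13.6 in WT samples 1, 2 and 3, and the histone gene Hist1h2br, at 9.21, 10.4 and 4.45 in the same samples. Gm16464 and Gm12805 had WT means of 3.79 and 3.38. No gene with the opposite pattern reached the level of Gm6158. Since its values chose Gm6158, its rank here is a description only.

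Cnot1 (ENSMUSG00000036550), which supplies the scaffold of the complex, did not follow its pseudogene. Its normalized count was 4836, 4376 and 4466 in heterozygous samples 1, 2 and 3, against 4697, 4280 and 4665 in WT samples 1, 2 and 3. The genotypes overlapped, with heterozygous sample 1 above every WT sample and WT sample 2 below every heterozygous sample. By limma-trend, the log2 fold change of Cnot1 was 0.0038 (95% interval -0.13 to 0.14), against -0.63 (interval -0.74 to -0.52) for Cyfip2, the mutated gene. Gm6158 made up 0.621%, 0.604% and 0.583% of the sum of both genes in heterozygous samples 1, 2 and 3. The summed normalized count was 4587 ± 246 in heterozygous samples and 4547 ± 232 in WT samples (SD, n = 3 each). The sum is nearly all Cnot1, and it is given as a description, since the values of Gm6158 enter it. Per kb of transcript, Gm6158 was at 28.95 to 33.4 normalized counts in heterozygous samples, where Cnot1 was at 523 to 578.

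**Figure D1:**
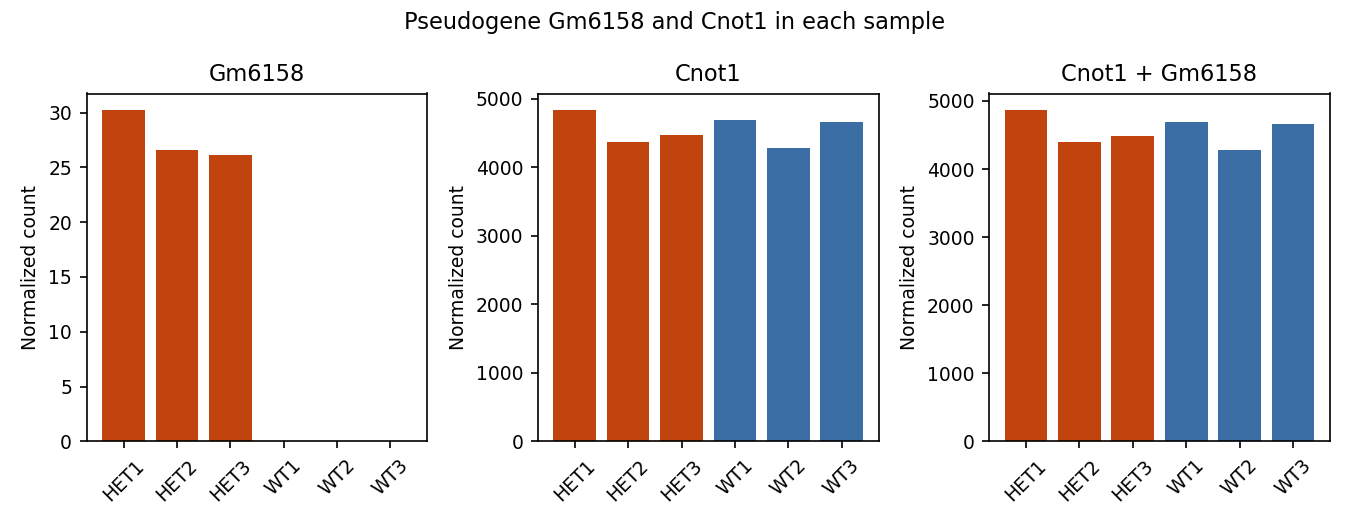
Normalized counts of Gm6158, of Cnot1 and of their sum in each heterozygous (HET1 to HET3, orange) and wild-type (WT1 to WT3, blue) sample. Gm6158 was listed at 26.2 to 30.2 in heterozygous samples and at 0 in WT samples, while Cnot1 and the sum overlapped between genotypes.

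None of the 9 subunits passed the threshold. Their log2 fold changes lay between -0.031 and 0.12, 7 above and 2 below WT, with a median of 0.023, beside a median of 0.0020 over all genes tested, of which 50.8% lay above WT. No subunit reached an unadjusted p of 0.05 either, where 5.07% of all genes did, and the adjusted p values of the subunits lay between 0.95 and 1.00 by limma-trend. All 9 of the 95% intervals include 0, and over the subunits they reached from -0.23 at the lowest bound to 0.30 at the highest. Since earlier results were known when the set was drawn up, these counts describe the subunits and do not set them apart from other genes.

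In the module of CNOT2 and CNOT3, which regulates the complex through CNOT1 and the poly(A) tail machinery, both genes overlapped between genotypes. Cnot2 (ENSMUSG00000020166; chromosome 10, 116485161 to 116581511) was at 1955, 1841 and 1949 normalized counts in heterozygous samples 1, 2 and 3, against 1986, 1710 and 1968 in WT samples. Its log2 fold change was 0.023, with an interval of -0.14 to 0.18. WT sample 2 was lower than every other sample. Cnot3 (ENSMUSG00000035632; chromosome 7, 3645268 to 3661109) was at 1789, 1733 and 1601 in heterozygous samples, against 1599, 1636 and 1645 in WT samples. Its log2 fold change was 0.069 (interval -0.070 to 0.21). Heterozygous samples 1 and 2 lay above all WT samples, and heterozygous sample 3 lay among them.

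Among the 9 subunits, Cnot10 was the only one whose genotypes did not overlap. CNOT10 pairs with CNOT11 in a module at the amino-terminal end of CNOT1. Cnot10 (ENSMUSG00000056167; chromosome 9, 114585878 to 114640184) was at 1960, 1937 and 1827 normalized counts in heterozygous samples 1, 2 and 3, against 1735, 1730 and 1800 in WT samples. Heterozygous sample 3 exceeded WT sample 3 by little. The heterozygous mean was 1908 ± 71.2 and the WT mean 1755 ± 39.0 (SD, n = 3 each), a log2 fold change of 0.12 ± 0.058 (SE) with an interval of -0.0085 to 0.25. The adjusted p was 0.95 by limma-trend. All heterozygous samples lay above all WT samples in 5.15% of the genes tested and below them in 5.3%, so 1 of 9 subunits is near that background. Its partner Cnot11 was at 827, 1052 and 916 in heterozygous samples and at 958, 920 and 1019 in WT samples. The log2 fold change of Cnot11 was -0.057 (interval -0.26 to 0.15), with overlapping genotypes. Cnot9, the adaptor that binds TNRC6 proteins, was at 1161, 1059 and 1047 in heterozygous samples and at 1062, 1001 and 1049 in WT samples, a log2 fold change of 0.069 (interval -0.084 to 0.22).

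The nucleases come in paralogous pairs. CNOT6 and CNOT6L carry an endonuclease-exonuclease-phosphatase fold, and CNOT7 and CNOT8 a DEDD fold. Cnot6 (ENSMUSG00000020362; chromosome 11, 49671503 to 49712723) was at 2008, 1891 and 2086 normalized counts in heterozygous samples 1, 2 and 3, against 1891, 1829 and 2035 in WT samples. Its log2 fold change was 0.057 (interval -0.088 to 0.20). Cnot6 and Cnot8 lie on the chromosome of Cyfip2, at 3.36 Mb and 11.8 Mb from it. Cnot6l (ENSMUSG00000034724; chromosome 5, 96070333 to 96164171) was at 1933, 1587 and 1977 in heterozygous samples, against 1826, 1563 and 1774 in WT samples. It had the widest spread of the 9 subunits, and sample 2 was the lowest in each genotype. Its log2 fold change was 0.087 (interval -0.12 to 0.30).

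Cnot7 (ENSMUSG00000031601; chromosome 8, 40492540 to 40515847) was at 2869, 2862 and 2961 normalized counts in heterozygous samples 1, 2 and 3, against 3128, 2753 and 3012 in WT samples. The WT samples enclosed the heterozygous ones. The log2 fold change of Cnot7 was -0.031 (interval -0.17 to 0.10). Cnot8 (ENSMUSG00000020515; chromosome 11, 58104153 to 58118594) was at 1775, 1591 and 1689 in heterozygous samples, against 1727, 1595 and 1700 in WT samples. Its log2 fold change was 0.0086 (interval -0.14 to 0.15). Cnot4 (ENSMUSG00000038784; chromosome 6, 35022065 to 35133724), a ubiquitin ligase that is not a stable member of the mammalian complex, was at 1081, 926 and 1079 in heterozygous samples and at 1150, 959 and 1040 in WT samples. Its log2 fold change was -0.028 (interval -0.23 to 0.17).

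**Figure D2:**
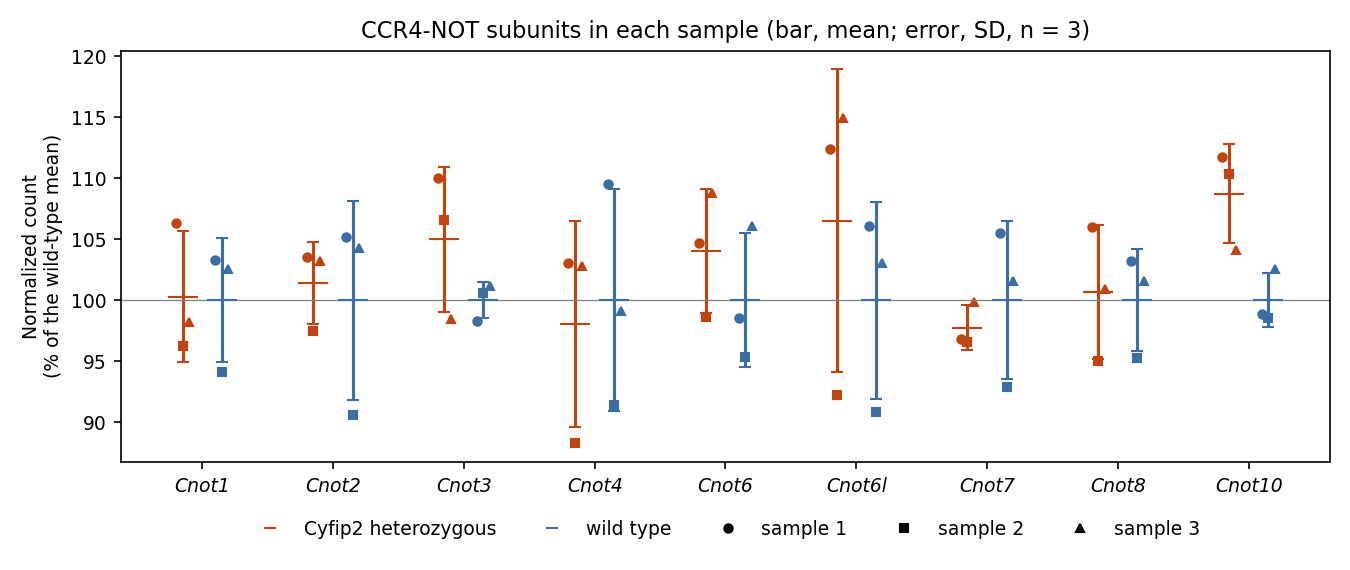
Normalized count of each subunit as a percentage of its wild-type mean in heterozygous (orange, left) and wild-type (blue, right) samples; points are samples 1 to 3, horizontal bars means and error bars SD (n = 3). Sample 2 (squares) was the lowest of its genotype for most subunits, and only for Cnot10 did all heterozygous points lie above all WT points.

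**Figure D3:**
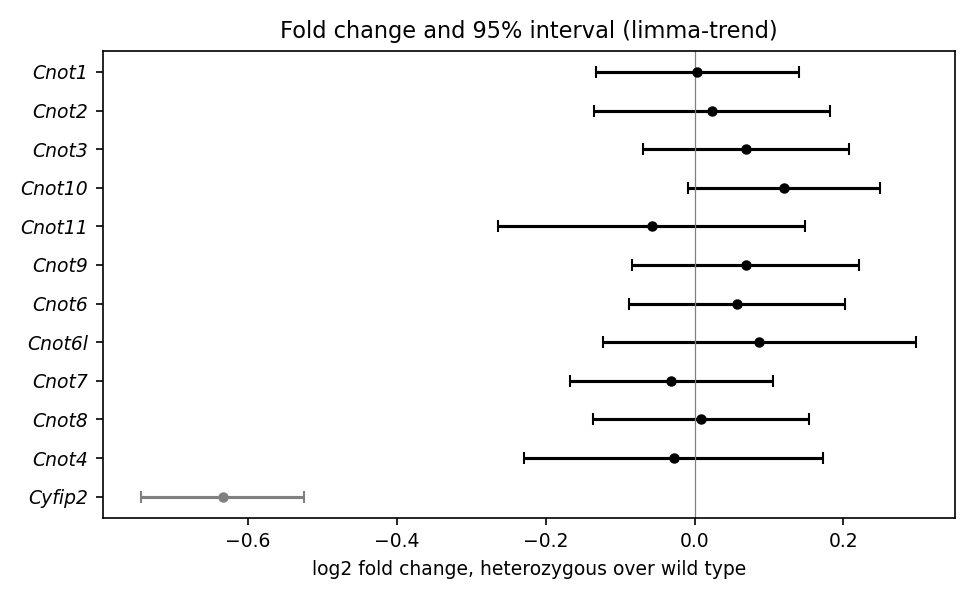
Log2 fold change, heterozygous over wild type, with 95% intervals from limma-trend for 11 CCR4-NOT genes (black) and for Cyfip2 (grey). All intervals of the complex include 0, and that of Cyfip2 runs from -0.74 to -0.52.

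Shifts shared by the subunits ran between samples rather than between genotypes. Heterozygous sample 2 was the lowest of its genotype for 7 of 9 subunits and WT sample 2 for 8 of 9. Averaged over the 9 subunits on the log2 scale, heterozygous samples 1, 2 and 3 lay at 0.068, -0.049 and 0.032 from the mean of all samples, and WT samples 1, 2 and 3 at 0.029, -0.099 and 0.019. The spread within a genotype, 0.060 (SD) in heterozygous and 0.071 in WT samples, exceeded the distance between the genotype means of 0.017 and -0.017. Cell type markers also differed between these samples. The summed normalized count of 4 oligodendrocyte markers was 135507 in WT sample 2, against 98304 to 101511 in the other WT samples. In heterozygous samples 1, 2 and 3 the sum was 97317, 99247 and 94590, with no such excess in sample 2. The part of tissue makeup in the subunit levels was not tested, and in bulk tissue fewer cells of a type cannot be told apart from less RNA per cell.

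As a measure of likeness to Cnot1, Pearson's r of log2 values over the 6 samples was computed for 8999 other genes with a mean of at least 500. The genes most like it were Rab10, Smu1, Trip11, Celf5 and Atg3, with r between 0.986 and 0.991. Rab10, a small GTPase of membrane traffic, was at 5159, 4602 and 4778 in heterozygous samples 1, 2 and 3, against 5048, 4569 and 5005 in WT samples. It had the same low sample 2 in both genotypes as Cnot1. Among the other subunits r was highest for Cnot8, at 0.948, and Cnot2, at 0.83, and lowest for Cnot3, at 0.29, and Cnot10, at 0.27. All these points share 6 libraries, so the values describe the samples only.

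Whether the balance between paralogues differed was examined next, with the ratio within a sample, which cancels a factor shared by all genes of a sample but not one that differs between genes. No stretch of 31 bases was shared between the transcripts of either pair. The ratio of Cnot6 to Cnot6l normalized counts was 1.04, 1.19 and 1.05 in heterozygous samples 1, 2 and 3, against 1.04, 1.17 and 1.15 in WT samples. The difference of the mean log2 ratio was -0.030 ± 0.083 (SE), within the spread between samples (exact two-sided permutation p = 1). The ratio of Cnot7 to Cnot8 was 1.62, 1.80 and 1.75 in heterozygous samples, against 1.81, 1.73 and 1.77 in WT samples. Heterozygous sample 1 had the lowest Cnot7 to Cnot8 ratio, and the other samples lay close together. The difference of the mean log2 ratio was -0.040 ± 0.051 (SE), with an exact two-sided permutation p of 0.6. In both tests the smallest p that 3 against 3 samples allow is 0.1.

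**Figure D4:**
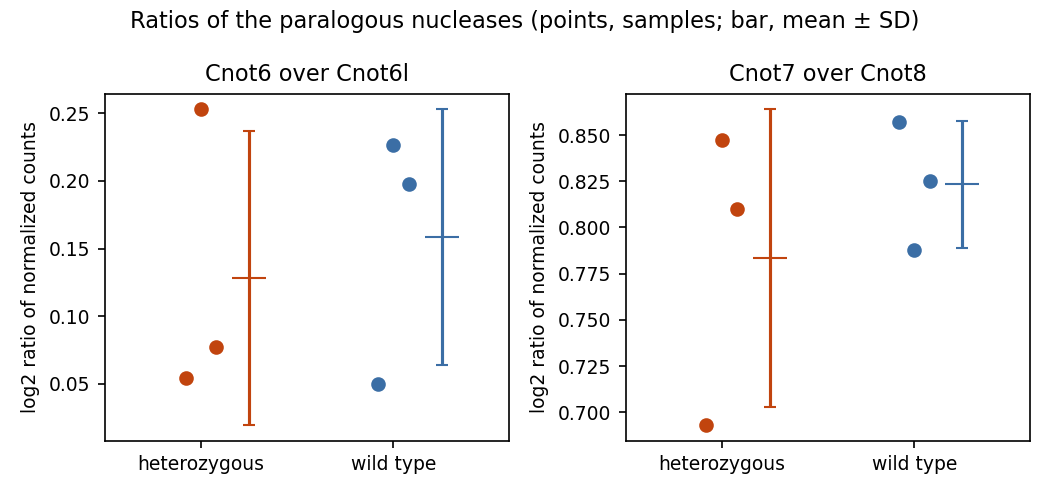
Log2 ratio of normalized counts of Cnot6 over Cnot6l and of Cnot7 over Cnot8 in heterozygous (orange, left) and wild-type (blue, right) samples; points are samples and bars means with SD (n = 3). The genotypes overlap in both ratios, and the axes do not start at 0.

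Between genes, levels were set per kb of the principal transcript. Cnot7 was the highest subunit, at a mean over the 6 samples of 1080 normalized counts per kb, and no sample of it (1015 to 1153) overlapped the next gene. Cnot8 (812), Cnot6 (783) and Cnot2 (773) followed with overlapping ranges. Below them came Cnot10 (642), Cnot3 (591) and Cnot1 (544), each overlapping its neighbour, and then Cnot9 (325), Cnot4 (311) and Cnot11 (286), which also overlapped one another. Cnot6l was the lowest, at 207 per kb, and its range of 183 to 231 did not reach that of Cnot11. The ratio per kb was 3.79 for Cnot6 over Cnot6l and 1.33 for Cnot7 over Cnot8. With the longest coding transcript in place of the principal one, Cnot6 was at 341 per kb and its ratio to Cnot6l at 1.65. The place of Cnot6 in this order thus rests on which isoform is used. Cnot7 was then at 983 per kb, and Cnot2 was at 679, nearer to Cnot10. Whether the samples of Cnot2 and Cnot10 overlapped at that length was not examined. For Cnot6l the principal transcript, of 8564 bases, is also the longest coding one. This change could therefore not move Cnot6l, and its place with a shorter isoform was not tested.

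The rest of the mRNA decay pathway was followed in 6 lists of 82 genes, of which 80 were in the table and tested. None of the 80 passed the threshold over all genes, 44 lay above and 36 below WT, and their log2 fold changes had a median of 0.014. Before adjustment, 3 of 80 (3.75%) had a p under 0.05, beside 5.07% of all genes. All heterozygous samples lay above all WT samples in 8 of 80 genes (10%, beside 5.15% of all genes tested) and below them in 0 of 80 (beside 5.3%). Among these 8 were Tnrc6c, Cpeb2, Paip2, Lsm6, Exosc4, Exosc7 and Exosc8, of which those outside the smallest p values were picked out after their values were seen. Among 8 genes that were listed as deadenylases outside the complex, 5 lay above WT, with a median of 0.014. That all 8 act on poly(A) tails was not examined. Pan2 and Pan3, which form the deadenylase that trims long tails before CCR4-NOT, had the smallest p values. Pan3 was at 1276 ± 107 in heterozygous and 1417 ± 149 in WT samples (SD, n = 3 each), a log2 fold change of -0.15. Pan2 was at 1130 ± 36.3 in heterozygous and 1064 ± 67.6 in WT samples (SD, n = 3 each), a log2 fold change of 0.088.

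Among 26 recruiters of the complex, 13 lay above and 13 below WT, with a median of -0.0014. Ythdf2, a reader of N6-methyladenosine that binds CNOT1, was at 955, 995 and 1024 in heterozygous samples 1, 2 and 3, against 1122, 1006 and 1163 in WT samples. Its genotypes overlapped, at a log2 fold change of -0.14 (interval -0.31 to 0.021). Rc3h1, which encodes the stem-loop binding protein Roquin-1, was at -0.14 (interval -0.30 to 0.022). The 11 genes of poly(A) tail binding and extension had a median log2 fold change of -0.0040, which was 0.043 without heterozygous sample 2 or without WT sample 3. Paip2b and Paip2, inhibitors of the poly(A)-binding protein, had the smallest p values there, with log2 fold changes of 0.13 and 0.083.

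Downstream of deadenylation, 11 of 19 decapping and 5′ decay genes lay above WT, with a median log2 fold change of 0.012. Lsm6, part of the LSM ring that binds shortened tails, was at 1051, 978 and 996 in heterozygous samples 1, 2 and 3, against 854, 879 and 917 in WT samples. All heterozygous samples lay above all WT samples, with a log2 difference of 0.19 ± 0.067 (SE) that did not pass (adjusted p = 0.91 by limma-trend). Lsm7, of the same ring, was at 160, 286 and 162 in heterozygous samples, against 98.5, 228 and 83.6 in WT samples. Sample 2 was the highest in both genotypes, and the log2 fold change of 0.65 had an interval of -0.13 to 1.44. Among 14 genes of the exosome and its helicase partners, 9 lay above WT, with a median log2 fold change of 0.067 that was 0.028 without WT sample 3. Exosc7, a subunit of the exosome ring, was at 632, 631 and 575 in heterozygous samples, against 552, 544 and 524 in WT samples, and did not overlap between genotypes. Dis3l, a cytoplasmic exosome nuclease, was at 0.20 ± 0.088 (SE) on the log2 scale. Neither passed, with an adjusted p of 0.95 each by limma-trend.

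**Figure D5:**
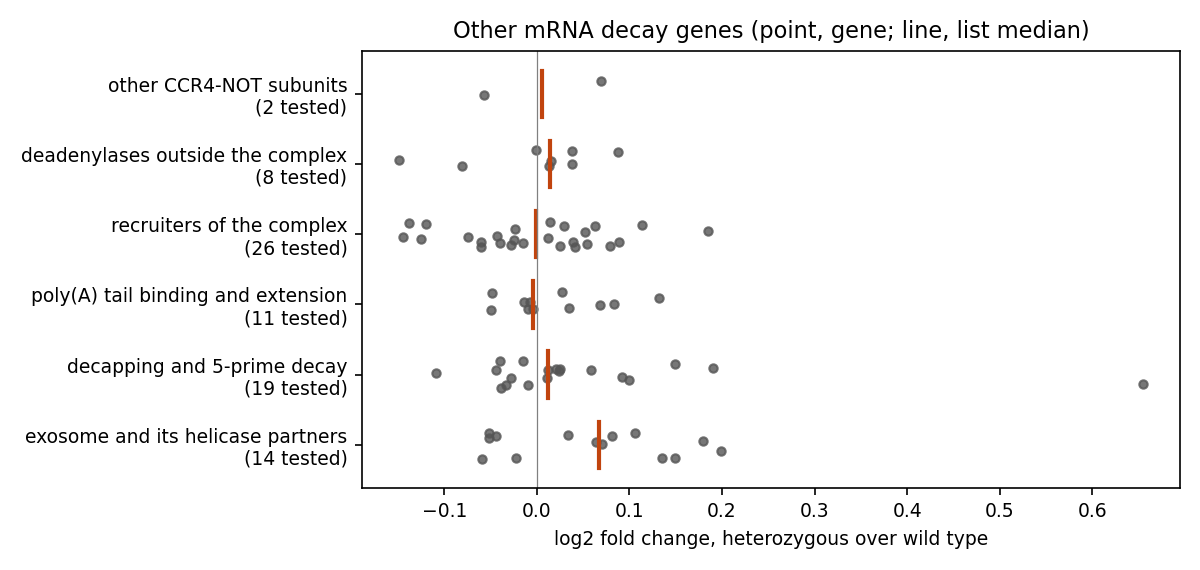
Log2 fold change, heterozygous over wild type, of 80 genes in 6 lists of the mRNA decay pathway; each point is a gene and each line a list median. List medians lie between -0.0040 and 0.067, and the point at 0.65 is Lsm7.

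Facts of the whole table bear on these values as follows. Cyfip2 was at 28834 ± 644 in heterozygous and 44752 ± 1369 in WT samples (SD, n = 3 each), which is 64.4% of WT. In units of 1e+06, sample totals ran between 36.4 and 37.1 normalized counts, and the most common step between low values implied 27.1 to 48.3 reads per sample. Markers of excitatory neurons summed to 57294 to 61305 in heterozygous and 60396 to 65197 in WT samples, with 2 of 4 above WT. For inhibitory neurons 3 of 3 markers lay above WT, with sums of 20284 to 21072 in heterozygous and 17859 to 20183 in WT samples. All 4 astrocyte markers also lay above WT, with sums of 29448 to 32194 in heterozygous and 27322 to 31234 in WT samples. Striatal markers summed to 2573 to 2945 in heterozygous and 3252 to 3780 in WT samples, with 1 of 4 above WT. Of the oligodendrocyte markers, 0 of 4 lay above WT. The part of these differences in the values of the CCR4-NOT and decay genes was not tested. No marker was listed at 0, and none passed the threshold. Genes that overlap a subunit on the other strand were 4930513N10Rik for Cnot1, 5330438D12Rik and Gm49344 for Cnot2, Leng1 for Cnot3 and Gm12192 for Cnot6. Zdhhc2 and Vps37a overlap Cnot7 in this way, and Usp37 overlaps Cnot9. Such genes could share reads with the subunit, since no source used here states whether the counting used strand. The same holds for Gm6158 and Gm31392. Other genes overlap Cnot1, Cnot2, Cnot3, Cnot6 and Cnot10 on the same strand, where strand could not part the reads.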

How the data were processed

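Stranded poly(A)-selected libraries (TruSeq Stranded mRNA) were made from the prefrontal cortex, per the labels' protocols. The submitters' processing notes list Salmon 0.11.2, R 3.6.0, DESeq2 1.19.11 and build GRCm38, with no role for any of them and no annotation release. What the authors deposited is one signal per gene and sample, a count divided by a normalizing factor, and no raw counts, so no count model was used. No source used here says whether that factor was common to a sample or also differed between genes. The share of values within 0.1 of a whole read was 77.3% to 84.6% around 1 to 2 reads and 21.0% to 41.5% around 10 to 20 reads, so whole reads were not recovered and depths are estimates.

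For the tests, log2(value + 1) went into limma-trend (limma 3.58.1, R 4.3.3), with genotype as the only term, on 15151 genes with a mean of at least 10. All p-values were adjusted by Benjamini-Hochberg over these genes, with a threshold of 0.05. On that log2(value + 1) scale the change of a low gene is understated. Paralogue ratios were compared by exact permutation over samples. Sequences, positions and lengths came from GENCODE M21. Symbols matched 18122 of 18160 identifiers. Shared stretches of 31 bases were counted on the transcript strand over all GENCODE transcripts. The procedure was tested on simulated counts with the same added spread for all genes. Since the values here are not whole counts, that test does not show how well the procedure suits them.

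The members and lists were chosen with earlier results of these data known. Named were the 10 members, Cyfip2, Cnot9 and Cnot11, the 2 genes of smallest unadjusted p per list, up to 5 genes patterned like Gm6158 in each direction and the 5 genes most like Cnot1. Rps12 was named after its values were seen, and some genes are not reported here. Samd4b and Exosc6 had no row matched and were not analysed here. As alternatives, samples were rescaled by TMM, the trend was dropped, robust shrinkage was used, the filter and the pseudocount were changed, the sample number was added as a replicate block, and each sample was left out in turn.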

Additional observations from a re-analysis of the deposited data

How the results depend on the processing

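No subunit and no gene of the 6 decay lists passed the threshold in the main analysis or under any of the 14 alternatives; the lowest adjusted p of a subunit was 0.57, for Cnot10 by limma-trend with the replicate block. Over all genes tested, 2 passed, 1 without the trend (not Cyfip2), 1 with a mean of at least 50, and 1 to 4 when a sample was left out (4 without WT sample 1 and 4 without heterozygous sample 3, 1 without heterozygous sample 1). Gm6158 is 1 of the 2; since its values chose it, its place in these counts is no test, and it left them under the replicate block, with the filter at 50 and without any 1 heterozygous sample. Leaving out 1 sample turned the sign of 5 subunits in 8 of 54 recomputed fold changes, and the other 8 alternatives in 0. These were Cnot1 (-0.039 without heterozygous sample 1 and -0.039 without WT sample 2, up to 0.033), Cnot8 (-0.030 and -0.026 without the same samples, up to 0.049), Cnot2 (-0.047 without WT sample 2, up to 0.061), Cnot4 (0.046 without heterozygous sample 2 and 0.039 without WT sample 1, down to -0.091) and Cnot7 (0.0086 without WT sample 1, down to -0.083). The others ranged from 0.034 to 0.11 for Cnot3, 0.024 to 0.10 for Cnot6, 0.019 to 0.19 for Cnot6l and 0.10 to 0.15 for Cnot10. Apart from the exosome list (0.028 to 0.077), every list median took both signs, between -0.030 and 0.043. The log2 ratio difference ranged from -0.092 to 0.0068 for Cnot6 over Cnot6l and from -0.072 to 0.0053 for Cnot7 over Cnot8, and the summed value from -0.031 to 0.041. Same-numbered samples deviated together at r = 0.13, 0.12 and -0.0052 for numbers 1, 2 and 3, against -0.16 to 0.046 for samples of different number. The main fit did not treat the numbers as pairs, and whether they mark a shared batch was not tested. Under the block 2 genes passed, 1 of them shared with the fit without it, and no subunit did. The TMM shift was at most 0.0024 on the log2 scale. The lengths used per kb were compared after seeing the data.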

Other observations

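Gm6158 is 1 of 72 genes that were listed at 0 in at least 1 sample and at 20 or more normalized counts in another. By annotation 40 of the 72 were pseudogenes and 32 protein coding. Of the 70 with a GENCODE sequence, 58 (82.9%) shared over 90% of their stretches of 31 bases with another gene, with a median of 98.9%. Among 5426 genes of the same range of mean (3.40 to 267) that were above 0 in every sample, 199 (3.67%) did so, with a median of 0.328%. Gm6158 shared 92.8%. It was the only one of the 72 at 0 in all WT samples and above 0 in all heterozygous samples, and none had the opposite pattern. These counts are descriptions chosen after seeing the data, and why a value was listed at 0 was not tested.

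Other sequences close to CCR4-NOT subunits were found in the annotation. The processed pseudogene Gm9207 on chromosome 3 held 10.6% of the stretches of Cnot3, and Gm18860 on chromosome 8 held 11.7% of those of Cnot8. Cnot2, Cnot6l, Cnot9 and Cnot11 shared none with any other gene.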
